A study of Caenorhabditis elegans with 2 samples.

Results

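The genes unc-86, mec-3, egl-44, egl-46, alr-1 and zag-1 encode transcription factors that set the fates of touch receptor neurons and of FLP neurons in Caenorhabditis elegans, and the peaks of a LIN-32 ChIP-seq experiment around them are described here. These 6 of 19973 nuclear protein-coding genes were listed by name for their roles in these neurons, with no threshold on a measured value. Chromatin came from mixed-stage embryos, sexes pooled, with a labelled age of 3 h, of strain OP740, which carries the transgene wgIs740 (lin-32 fused to TY1, EGFP and 3xFLAG, with an unc-119(+) rescue marker) in an unc-119 (tm4063) background. Bound chromatin was pulled down through the GFP tag. There was 1 group with 2 biological replicates and no second condition, so no comparison between conditions was possible. The material was whole embryos of 1 transgenic line, so the cells in which a site was bound cannot be told apart.

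LIN-32 is a proneural basic helix-loop-helix factor of the Atonal family, whose members bind E-boxes, hexamers of the form CANNTG, and it is needed to form several touch-sensitive and ciliated neurons. UNC-86, a POU homeodomain factor, acts in many neuronal lineages and switches on mec-3, which encodes a LIM homeodomain factor, and both proteins together activate the terminal genes of touch receptor neurons. FLP neurons, nociceptors of the head, also express both factors. There the TEAD-type factor EGL-44 and the zinc-finger factor EGL-46 keep the touch receptor genes off. ZAG-1, a zinc-finger homeodomain factor of the ZEB type, holds egl-44 and egl-46 off in touch receptor neurons, and ALR-1, an Aristaless-type homeodomain factor, helps to secure touch receptor fate.

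4 lists of peaks were read. The IDR set (irreproducible discovery rate), the outcome of a filter on agreement of ranks between replicates, held 1042 peaks, and these were the 1042 strongest of the 26004 entries called on both replicates together (the pooled list). Replicate 1 had 30000 entries, and replicate 2 had 22601 on the nuclear chromosomes. These 3 larger lists are deposited as IDR input that holds background regions along with peaks, so an entry of theirs outside the IDR set, called a peak below for short, is not by itself evidence of binding. By the authors' q-values, 1423 pooled entries (5.47%) had a q of 0.05 or less, among them all 1042 of the IDR set, and the median −log10 q of the pooled list was 0.09. At the 6 genes the 5 pooled peaks in the IDR set had −log10 q from 2.29 to 2.95, and none of the other 27 reached a q of 0.05, with −log10 q from 0.02 to 1.12. Peaks were ranked within each list by the authors' signal value, with rank 1 the strongest, and levels were not compared between lists. Read depth is unknown from these lists. A peak was given to a gene when its summit lay from 5 kb upstream of the gene's 5′ end to its 3′ end.

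The stretches of 101 bases centred on the summits of the IDR peaks at egl-46 and egl-44 are shown first, because the results turn on them. They were read from the RefSeq genome, build WBcel235, and are written 5′ to 3′ on the strand of the gene, with every CANNTG hexamer in capitals.
egl-46, 4138 bp upstream (chrV:6685661-6685761, minus strand): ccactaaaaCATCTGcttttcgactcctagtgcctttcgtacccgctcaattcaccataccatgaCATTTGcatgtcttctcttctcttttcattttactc
egl-46, 3179 bp upstream (chrV:6684702-6684802, minus strand): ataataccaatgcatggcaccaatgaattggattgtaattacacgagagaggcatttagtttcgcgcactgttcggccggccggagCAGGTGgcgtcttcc
egl-46, 1945 bp upstream (chrV:6683468-6683568, minus strand): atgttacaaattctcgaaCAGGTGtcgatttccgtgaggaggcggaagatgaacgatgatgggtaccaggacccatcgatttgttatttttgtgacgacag
egl-46, 136 bp upstream (chrV:6681659-6681759, minus strand): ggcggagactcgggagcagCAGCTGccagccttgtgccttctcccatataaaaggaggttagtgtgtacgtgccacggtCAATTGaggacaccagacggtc
egl-44, 4486 bp downstream of the first 5′ end (chrII:5933238-5933338, plus strand): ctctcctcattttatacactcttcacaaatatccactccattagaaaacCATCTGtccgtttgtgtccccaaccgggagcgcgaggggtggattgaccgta
CAGATG and CAGCTG, searched on both strands, are the hexamers counted below as Atonal-type, and CATCTG is CAGATG read on the opposite strand.

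LIN-32 peaks of the IDR set lay in the windows of egl-46 and egl-44 and of none of the other 4 genes. That is 2 of 6 genes (33.3%), against 7.73% of all protein-coding genes. Among the 7424 genes with windows between 7451 and 17029 bp, the range of the 6 genes, the share was 10.1%. With so few genes, chosen with earlier results of these data known, the difference is a description and was not tested. The 5 IDR peaks made 0.0825 peaks per kb of the 60.6 kb in the 6 windows, against 0.0104 per kb of the nuclear genome. Most of that density came from 1 gene, as 4 of the 5 peaks lay in the egl-46 window. Every one of the 6 windows held a peak in each of the 3 larger lists, but so did 79.3% of all genes in the pooled list, 84.7% in replicate 1 and 76.3% in replicate 2, so a peak in those lists sets none of the genes apart. The same 2 genes had an IDR peak with windows from 2 kb upstream (5.11% of all genes), with windows of 2000 bp upstream to 500 bp downstream of any 5′ end (4.16%), in the stronger part of the IDR set (4.13%) and with the strongest peaks of replicate 2 in place of the IDR set (7.82%). They were joined by unc-86 with the strongest peaks of replicate 1 (7.73% of all genes), and by zag-1 with each peak assigned to the closest 5′ end alone (4.60%).

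**Figure D1:**
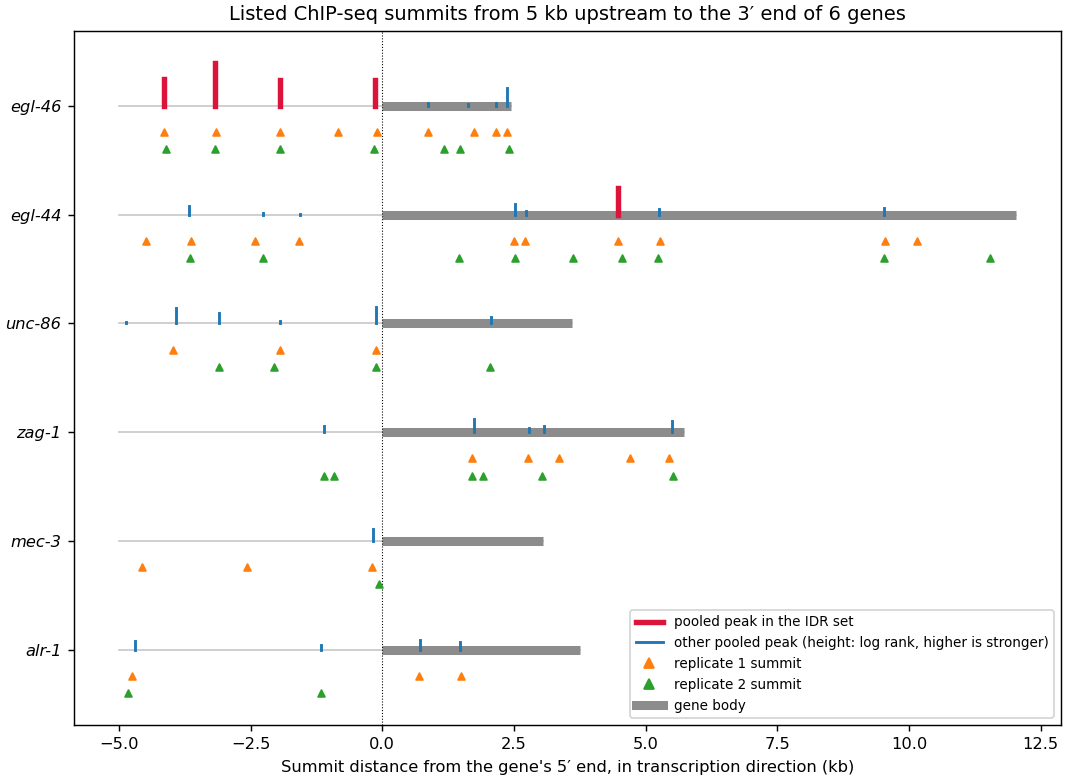
Summits in the windows of the 6 genes, by distance from the gene's 5′ end in kb along the direction of transcription. Vertical bars are pooled peaks, taller for a better rank on a log scale and red and thick where the peak is in the IDR set, triangles are summits of each replicate list, and grey blocks are gene bodies. The 4 IDR peaks of egl-46 lie upstream of the gene, and the IDR peak of egl-44 lies within it.

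The gene egl-46 (WBGene00001210, chromosome V, 6679123 to 6681573, minus strand) had 4 IDR peaks, all upstream of its single annotated 5′ end. Of all protein-coding genes, 9 (0.0451%) had at least 4 IDR peaks in such a window, and among genes with windows as long as those of the 6 genes there were 3 (0.0404%), egl-46 among them in both counts. Only 1 gene, Y111B2A.12, had more (5, in a window of 19452 bp). The egl-46 window is 7451 bp long, close to the median of 7027 bp over all genes. It is itself the lower end of the range of lengths compared. Below that range, T14F9.2 (7383 bp) and lin-32 (6068 bp) also had 4 IDR peaks. The egl-46 summits spanned 4002 bp, with gaps of 959, 1234 and 1809 bp between neighbours. No other protein-coding gene's window held any of these 4 summits.

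The strongest of the 4 lay 3179 bp upstream of egl-46 (peak 6684660 to 6684785, summit 6684752). Its signal was 407 in the pooled list, where it ranked 31. It ranked 31 in replicate 1 (signal 205) and 32 in replicate 2 (signal 198), with summits 16 and 8 bp from the pooled one. Ranks were thus nearly the same in both replicates. The egl-46 5′ end was the nearest protein-coding 5′ end to this summit, and 45 protein-coding genes (0.225%) had a pooled peak of this rank or better in their windows.

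The other 3 IDR peaks of egl-46 were weaker and close to one another in pooled signal. The peak 4138 bp upstream (summit 6685711) had a signal of 143 and ranked 420, and it ranked 391 in replicate 1 and 614 in replicate 2. The nearest protein-coding 5′ end to that summit was that of K11G9.5, a gene on the same strand, 2781 bp away, nearer than that of egl-46. The peak 1945 bp upstream (summit 6683518) had a signal of 139 and ranked 450. It was the least alike between replicates, ranking 1268 in replicate 1 and 278 in replicate 2, although its summits differed by only 4 and 3 bp from the pooled one. The peak 136 bp upstream (summit 6681709), at the egl-46 promoter, had a signal of 135 and ranked 483, with rank 421 in replicate 1 and 640 in replicate 2. The last 2 summits also lay in annotated non-coding RNA genes, K11G9.7 and K11G9.12. No IDR peak of egl-46 lay within 100 kb of a tRNA gene.

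The egl-46 gene body held weaker peaks as well. The strongest lay 2378 bp downstream of the 5′ end, in a non-coding part of an exon near the 3′ end, and ranked 1669 in the pooled list, outside the IDR set. It ranked 3262 in replicate 1 and 1816 in replicate 2. Another 3 pooled peaks in the gene ranked between 15893 and 20373. None of them was matched within 100 bp in both replicates, and most pooled peaks outside the IDR set were not either. With 8 pooled peaks, egl-46 had 1.07 per kb of window, against a median of 0.229 and a 90th percentile of 0.546 over all protein-coding genes. Of the other 5 genes, unc-86 (0.698 per kb) also lay above that percentile, and zag-1 (0.466) and alr-1 (0.457) lay between it and the median.

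The gene egl-44 (WBGene00001208, chromosome II, 5928802 to 5940830, plus strand) had 1 IDR peak (5933096 to 5933479, summit 5933288). Measured from the first 5′ end of the gene, the summit lay 4486 bp downstream, in an intron of the longest transcripts. The gene has 13 annotated transcripts with 9 distinct 5′ ends, and the summit lay 198, 205 and 249 bp upstream of the 5′ ends of the transcripts F28B12.2b.3, F28B12.2a.1 and F28B12.2i.1. The peak thus stood just upstream of an internal cluster of 5′ ends rather than at the first one. Its signal was 149 and its rank 391, with rank 424 in replicate 1 (signal 72.5) and 408 in replicate 2 (signal 75.8). The replicate 1 summit fell on the pooled one, and the replicate 2 summit lay 71 bp away. A pooled peak of this rank or better was present in the windows of 619 protein-coding genes (3.10%).

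The other 7 pooled peaks of egl-44 ranked between 4619 and 24536. The best of them lay in an intron 2518 bp from the first 5′ end and ranked 4790 in replicate 1 and 12807 in replicate 2. At the first 5′ end itself the nearest upstream pooled summit lay 1568 bp away, and it ranked 24536. With 0.470 pooled peaks per kb, the egl-44 window lay below the 90th percentile of all genes. Its window was also the longest of the 6.

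The gene unc-86 (WBGene00006818, chromosome III, 8212740 to 8216336, minus strand) had no IDR peak, but it had the best pooled rank of the 4 genes without one. Its strongest pooled peak lay 125 bp upstream of the 5′ end, with a signal of 70.7, rank 1984 and a −log10 q of 0.90. It was matched in both replicates, at rank 7795 in replicate 1 and 2019 in replicate 2. The replicates differed at a peak 3919 bp upstream of unc-86, which ranked 1003 in replicate 1 (−log10 q of 1.94) and had no replicate 2 summit nearer than 824 bp. In the pooled list this peak ranked 2303, with a −log10 q of 0.76. The reverse held at 3108 bp upstream, with rank 2348 in replicate 2 and no replicate 1 summit nearer than 859 bp. Of the 6 pooled peaks of unc-86, 1 was matched in both replicates, 2 in replicate 1 alone, 2 in replicate 2 alone and 1 in neither. Most pooled peaks outside the IDR set were likewise not matched in both replicates (share given below). This split therefore does not set unc-86 apart. The peak at 3919 bp is nearer to the 5′ end of C30A5.16, a gene within the unc-86 upstream region, than to that of unc-86, and it also falls in the window of mob-4.

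The gene mec-3 (WBGene00003167, chromosome IV, 10458816 to 10461867, minus strand), which UNC-86 activates, had a single pooled peak, 173 bp upstream of its 5′ end, with a signal of 58.3, rank 3777 and a −log10 q of 0.42. Replicate 1 had it at rank 2512. The nearest replicate 2 summit lay 104 bp away, just outside the distance used for matching, and ranked only 19261. With 0.124 pooled peaks per kb, mec-3 was the only one of the 6 genes below the median over all genes. The windows of ugt-43 and srb-17 held this summit too. A pooled peak of its rank or better was found in the windows of 24.0% of all protein-coding genes.

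The gene zag-1 (WBGene00006970, chromosome IV, 3855843 to 3861569, plus strand) had its strongest pooled peak inside the window in an intron, 1746 bp downstream of the 5′ end, at rank 3388 with a −log10 q of 0.49. That peak ranked 10757 in replicate 1 and 2997 in replicate 2. A further peak near the 3′ end, 5503 bp downstream and nearest to the 5′ end of aat-8, ranked 4360 and was matched at ranks 5697 and 4805 in replicates 1 and 2. A peak 1104 bp upstream was present at rank 2497 in replicate 2 and had no replicate 1 summit nearer than 2811 bp. A pooled peak of rank 3388 or better was found in the windows of 21.8% of all protein-coding genes.

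Beyond the window, zag-1 did have an IDR peak. Its summit lay 6755 bp upstream of the 5′ end (peak 3848896 to 3849279), and the zag-1 5′ end was the nearest protein-coding one. The signal was 152 and the rank 370, which is ahead of the egl-44 peak, and it ranked 578 in replicate 1 and 329 in replicate 2 with summits within 4 and 2 bp of the pooled one. With windows reaching 10 kb upstream, 3 of the 6 genes had an IDR peak, against 11.7% of all genes. The sequence at this summit, shown although the peak falls outside the window chosen, held a CAAGTG but neither Atonal-type hexamer.
zag-1, 6755 bp upstream (chrIV:3849038-3849138, plus strand): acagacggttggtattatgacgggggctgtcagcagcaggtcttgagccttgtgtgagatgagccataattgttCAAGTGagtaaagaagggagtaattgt
A weaker IDR peak lay 11674 bp upstream of zag-1 (rank 806), but its nearest 5′ end was that of F28F9.2. No IDR peak lay within 20 kb of unc-86, mec-3 or alr-1.

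The gene alr-1 (WBGene00044330, chromosome X, 11121871 to 11125620, minus strand) had the weakest best peak of the 6 genes. It lay in an intron 722 bp downstream of the 5′ end and ranked 5637 in the pooled list, with a signal of 51.9 and a −log10 q of 0.25. Replicate 1 had it at rank 3652, and no replicate 2 summit lay nearer than 1878 bp. None of the 4 pooled peaks of alr-1 was matched within 100 bp in both replicates. Most pooled peaks outside the IDR set were not either (share given below), so this count does not set alr-1 apart. The alr-1 peak 4692 bp upstream had a replicate 1 summit 54 bp away (rank 7661). Its replicate 2 summit lay 138 bp away (rank 7425), so the peak was matched in both within 250 bp. As many as 32.4% of all protein-coding genes had a pooled peak of rank 5637 or better in their windows.

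**Figure D2:**
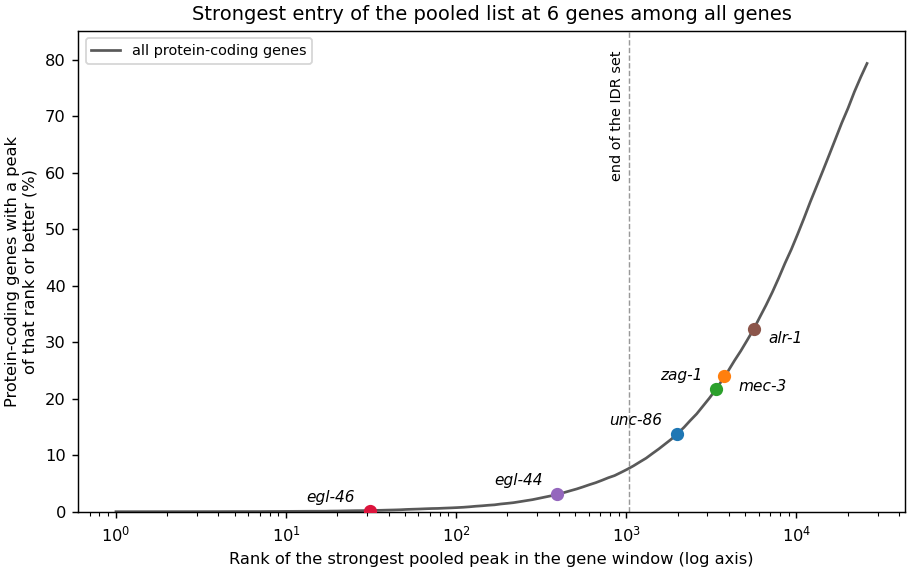
The rank of the strongest pooled peak in each gene window (log axis) against the share of protein-coding genes with a peak of that rank or better. The curve is all 19973 genes, the points are the 6 genes, and the dashed line is the end of the IDR set at rank 1042. Points for egl-46 (rank 31) and egl-44 (391) lie left of the line, and unc-86 (1984), zag-1 (3388), mec-3 (3777) and alr-1 (5637) lie right of it.

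In order of their strongest pooled peak, the genes ran egl-46, egl-44, unc-86, zag-1, mec-3 and alr-1. The same pair came first in each replicate, with best ranks of 31 in replicate 1 and 32 in replicate 2 for egl-46 and 424 and 408 for egl-44. The order behind them was not the same in the replicates. In replicate 1 it was unc-86 (1003), mec-3 (2512), alr-1 (3652) and zag-1 (5697). In replicate 2 it was unc-86 (2019), zag-1 (2497), alr-1 (7425) and mec-3 (19261). Ranks from lists of different lengths are set side by side here only to give the order within each list.

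All 5 IDR peaks in the windows were matched within 100 bp in both replicates, as were 96.6% of all IDR peaks. Of the 27 weaker pooled peaks, 8 were matched in both, 11 in replicate 1 alone, 6 in replicate 2 alone and 2 in neither. Over all pooled peaks outside the IDR set, the share matched in both was 26%. The weaker peaks of the 6 genes, at 29.6%, were therefore close to the list as a whole. The pooled list draws on both replicates, which were called against 1 shared control alignment, so part of this matching is built in. The replicate lists also held summits with no pooled summit within 100 bp, 9 of 33 in replicate 1 and 10 of 29 in replicate 2. The strongest of these ranked only 12061 in replicate 1, at zag-1, and 7425 in replicate 2, at alr-1. What share of all replicate entries lacks a pooled summit was not computed. Whether these 2 counts are usual for the lists is therefore unknown.

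**Figure D3:**
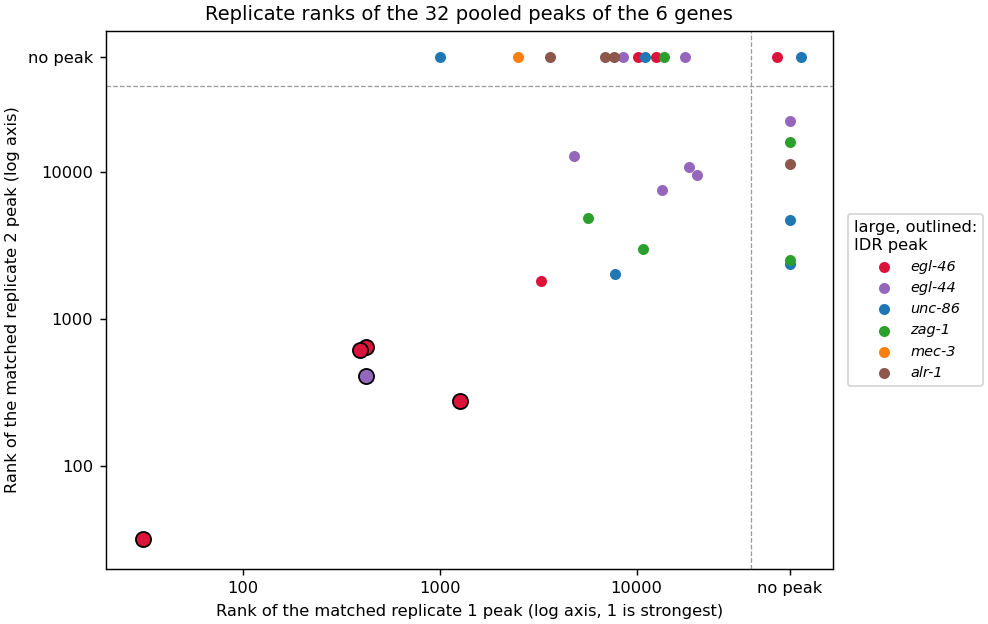
Rank of the matched summit in replicate 1 (x) and replicate 2 (y), on log axes, for the 32 pooled peaks of the 6 genes. Large outlined points are IDR peaks, and points beyond the dashed lines had no summit within 100 bp in that replicate (spread sideways where neither replicate had one). The 5 IDR peaks lie at the lower left, with the strongest egl-46 peak at ranks 31 and 32.

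Of the 5 IDR peaks in the windows, 3 held an Atonal-type hexamer within 50 bp of the summit, against 31.3% of all 1042 IDR peaks. In the egl-44 peak a CATCTG lay over the summit itself. The egl-46 promoter peak held a CAGCTG, and the peak 4138 bp upstream held a CATCTG. The strongest egl-46 peak and the one 1945 bp upstream held neither hexamer in that span, and each had a CAGGTG, which reads CACCTG on the opposite strand and was present in 11.8% of IDR peaks. Within 100 bp of the summit all 5 held an Atonal-type hexamer, against 40.2% of IDR peaks. The GC content of these 5 stretches ran from 41.6 to 57.4%, where all IDR peaks averaged 49.3% ± 7.11 (SD over 1042 peaks). A match shows that the letters are there and not that they are bound.

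At the 4 genes without an IDR peak in the window, none of the strongest pooled peaks held an Atonal-type hexamer within 50 bp, where 2607 of all 26004 pooled peaks did. Of all 16 pooled peaks of these genes, 3 (18.8%) held one. The unc-86 peak 3919 bp upstream, matched in replicate 1 alone, had a CAGATG, and so did the zag-1 peak 1104 bp upstream, matched in replicate 2 alone. The unc-86 peak 1933 bp upstream, also matched in replicate 1 alone, had a CATCTG. Its summit lay in C30A5.16, 50 bp from that gene's 5′ end, and it ranked 16708 with a −log10 q of 0.05. The stretches at the strongest peaks of unc-86 and mec-3 are shown for comparison with those of egl-46 and egl-44, again on the strand of the gene and with CANNTG in capitals.
unc-86, 125 bp upstream (chrIII:8216411-8216511, minus strand): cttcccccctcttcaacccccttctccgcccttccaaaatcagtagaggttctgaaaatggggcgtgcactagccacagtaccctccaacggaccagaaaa
mec-3, 173 bp upstream (chrIV:10461990-10462090, minus strand): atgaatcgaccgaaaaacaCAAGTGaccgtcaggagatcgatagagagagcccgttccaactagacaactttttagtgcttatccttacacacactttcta
The unc-86 stretch holds no CANNTG at all, and the mec-3 stretch holds a CAAGTG.

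Among 16 other regulators of touch receptor, FLP and related neurons, 4 (25.0%) had an IDR peak in the window, against 7.73% of all genes. They were lin-32 itself, with 4 peaks of which the strongest ranked 226, the Hox cofactor genes ceh-20 (1 peak, rank 201) and unc-62 (2 peaks, best rank 204), and ahr-1, an aryl hydrocarbon receptor gene that separates touch receptor from PVD-like fate (2 peaks, best rank 702). Peaks from the native lin-32 locus and from the lin-32 transgene cannot be told apart. Windows of the 16 genes ran from 6068 bp (lin-32) to 25312 bp (lin-14). The share of all genes beside them was not matched for window length. The ceh-20 peak, 882 bp upstream, had a signal of 206 and ranked 270 in replicate 1 and 174 in replicate 2. None of these reached the rank of the strongest egl-46 peak. The 12 others, which included the Hox genes and the Msx-type gene vab-15, had best pooled ranks from 1098 (lin-14) to 22502 (pag-3). Among 14 touch receptor neuron genes, most of which build the sensory apparatus of these cells, only mec-6 (7.14%) had an IDR peak, a share near that of all genes.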

How the data were processed

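Peaks of LIN-32 ChIP-seq in 2 biological replicates were analysed from 4 deposited lists. Per the deposited notes, 1 list was called on each replicate and 1 on both together, with 1 control alignment for all, and the IDR set was made from these 3 lists. Sources used here name neither the peak caller nor the IDR threshold. Signal values are the authors' own as deposited, on an unstated scale, and served only to rank peaks within a list. The −log10 q-values are the authors' as deposited. The lists of each replicate and of both together are named as holding background as well as peaks. Coordinates are ce11 per the labels, the same as WBcel235.

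Gene windows came from Ensembl release 115. Mitochondrial peaks (17 in replicate 2) were left out. Summits within 100 bp counted as matched, and hexamers were searched within 50 bp. All 6 genes are named throughout, and from the other lists those with an IDR peak. No test was made: there is 1 group, and the members and lists were chosen with earlier results of these data known. The replicates are labelled as biological replicates. Window assignment, matching and hexamer search were tested on simulated data. Alternatives covered windows, peak sets, matching distance and hexamers. Python 3.11.15, numpy 2.4.6, pandas 2.3.3 and matplotlib 3.10.9 were used.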

Additional observations from a re-analysis of the deposited data

How the results depend on the processing

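The 2 genes with an IDR peak, egl-46 and egl-44, kept it under all 7 alternatives to the window or the peak set, and the count of genes ran from 2 to 3. It was 3 with windows from 10 kb upstream and with peaks assigned only to the closest 5′ end, through zag-1. Windows from 10 kb upstream contain those from 5 kb, so they could lose neither egl-46 nor egl-44. Given the ranks above, the 521 strongest IDR peaks and the 1042 strongest peaks of each replicate were also bound to keep both genes. Leaving out a replicate, with the 1042 strongest peaks of the other in place of the IDR set, gave 2 genes without replicate 1 and 3 without replicate 2, through unc-86, and 5 peaks in the windows both times. The 5 IDR peaks became 3 with windows from 2 kb upstream and with windows of 2000 bp upstream to 500 bp downstream of any 5′ end, which leave out the strongest egl-46 peak, and the best pooled rank of egl-46 was then 450. In the windows around 5′ ends the best rank was 12057 for alr-1 and 9143 for zag-1, and with 10 kb upstream it was 370 for zag-1. The 3 IDR peaks with an Atonal-type hexamer became 5 within 100 bp of the summit, against 40.2% of all IDR peaks, and also 5 with CACCTG and CATATG added, against 41.4%. Pooled peaks matched in both replicates numbered 13 of 32 (40.6%) within 100 bp, against 28.8% of all pooled peaks, and 20 (62.5%) within 250 bp, an alternative chosen after seeing the data, against 42.5%. Both counts include the 5 IDR peaks, which were all matched in both replicates at these distances. For the 27 pooled peaks outside the IDR set, the share within 100 bp was 29.6%. That was close to the share of all pooled peaks outside the IDR set, as given above. Within 250 bp the shares were not split in this way. Of the 5 IDR peaks, 4 were matched in both replicates within 50 bp. The share of all IDR peaks matched at that distance was not computed. No paired analysis was possible because there is 1 group. The lists give no read depth, so counting error per peak is unknown.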
